A study of Mus musculus with 49 samples.

Results

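Mpo, Elane, Prtn3, Ctsg, Ms4a3, Fcnb and Nkg7 were chosen as a list of primary granule and promyelocyte genes, and these 7 genes were followed among the 38253 genes of a mouse RNA-seq table. The table held 49 samples in 10 groups, each sample from an individual mouse. Normal cells were sorted from the marrow of wild-type female C57BL/6J mice of 6 to 12 weeks and covered long-term haematopoietic stem cells (LT-HSC, 5 samples), short-term stem cells (ST-HSC, 5), multipotent progenitors (MPP, 6), common myeloid progenitors (CMP, 5), granulocyte macrophage progenitors (GMP, 5) and megakaryocyte-erythrocyte progenitors (MEP, 4). The gates were lineage-negative, Sca-1+ and c-Kit+ for the first 3 (CD150+ with low or no CD34 for LT-HSC, CD150+ CD34+ for ST-HSC, CD150- CD34+ for MPP), and Sca-1-, c-Kit+ and CD150- with CD34 for CMP (low FcγR) and GMP (FcγR+). Leukaemias arose in sublethally irradiated mice that received ST-HSC, MPP, CMP or GMP carrying a retrovirus for MLL-AF9 (MA9, a fusion oncoprotein) and GFP, and are called STHSC:MA9 (3 samples), MPP:MA9 (6), CMP:MA9 (4) and GMP:MA9 (6). The infected cells were cultured with cytokines before transplant, and no other treatment is described. The leukaemias were profiled as bulk GFP+ cells without lineage or c-Kit gates, so each leukaemia sample mixes its immature and maturing cells. Their labels give bone marrow as tissue, genotype WT and the same age range, whereas the study's methods describe sorting from spleen. Leukaemic mice were sampled once ill, and their age at sampling is not given. Median survival after transplant differed among origins and was longest for GMP:MA9. Tissue, age at sampling, culture, transplantation, gating and GFP sorting therefore cannot be told apart from transformation in any comparison of leukaemia with normal cells. Among the leukaemias, time since transplant cannot be told apart from origin.

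Primary (azurophil) granules are the first granules that a developing neutrophil makes, and their contents are transcribed for a short window at the promyelocyte stage. Myeloperoxidase (Mpo) makes hypochlorous acid, and neutrophil elastase (Elane), proteinase 3 (Prtn3) and cathepsin G (Ctsg) are serine proteases that are stored active in the same granule. Ms4a3 is a membrane protein of granulocyte and monocyte progenitors, Fcnb is ficolin-B, a lectin of maturing neutrophils that recognises microbial sugars, and Nkg7 is a granule membrane protein best known from natural killer and cytotoxic T cells. Messenger RNA of these genes is made by the progenitor that will form the granule and is largely lost as neutrophils mature.

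In the NCBIM37 assembly (mm9) with GENCODE M1 annotation, all 7 are protein-coding genes. Elane (chr10:79349057-79350961, + strand) and Prtn3 (chr10:79337221-79345919, + strand) lie 3137 bases apart. Mpo lies at chr11:87607083-87617915 (+), Ctsg at chr14:56718718-56721411 (-), Ms4a3 at chr19:11703987-11715341 (-), Fcnb at chr2:27931898-27940405 (-) and Nkg7 at chr7:50692443-50693616 (+). Of the exonic 31-base windows of Mpo, 12.8% also occur in exons of other genes, as do 7.58% of those of Prtn3 (all in BC005764, which overlaps it by 159 bases) and 0.756% of those of Ms4a3. The counting could have split reads over those stretches. None were shared for Elane, Ctsg, Fcnb or Nkg7.

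Promoter sequence is shown for the protease genes, which share motif letters, and for Fcnb, which has other letters. Letters and expression did not go together throughout: Ms4a3 also held only C/EBP letters, but was highest in GMP as the proteases were. Sequences are from RefSeq promoters (GRCm38.p6), found for 7 of 7 genes and each matched once in NCBIM37, and they run 5′ to 3′ on the gene's strand. Capitals mark matches on either strand to GAGGAA (PU.1), TGTGGT (RUNX), CAACNG (MYB) or TTNNGNAA (C/EBP), none of which overlap one another here. The Elane stretch is the 120 bases before the RefSeq start (chr10:79348937-79349056, +), the Prtn3 stretch is 103 bases that end where the MYB letters end (chr10:79342259-79342361, +), the Ctsg stretch is 250 bases (chr14:56721412-56721661, -) and the Fcnb stretch is 243 bases (chr2:27940406-27940648, -).
Elane: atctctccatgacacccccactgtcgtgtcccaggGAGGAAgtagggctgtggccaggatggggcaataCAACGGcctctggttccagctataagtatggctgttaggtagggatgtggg
Prtn3: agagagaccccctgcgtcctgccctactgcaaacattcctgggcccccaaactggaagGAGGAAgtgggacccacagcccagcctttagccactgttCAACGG
Ctsg: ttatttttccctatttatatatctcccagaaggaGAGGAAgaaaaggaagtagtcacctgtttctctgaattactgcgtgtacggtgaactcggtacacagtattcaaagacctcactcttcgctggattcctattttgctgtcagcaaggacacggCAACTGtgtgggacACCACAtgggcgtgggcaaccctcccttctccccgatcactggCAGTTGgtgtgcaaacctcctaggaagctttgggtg
Fcnb: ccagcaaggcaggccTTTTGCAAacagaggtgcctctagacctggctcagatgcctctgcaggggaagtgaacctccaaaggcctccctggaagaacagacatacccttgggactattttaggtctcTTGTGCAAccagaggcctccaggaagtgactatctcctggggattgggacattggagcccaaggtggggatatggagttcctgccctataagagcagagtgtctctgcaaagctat

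Elane and Prtn3 both carry GAGGAA followed by CAACGG. In Elane these lie at bases 85 to 80 and 51 to 46 before the RefSeq start. In Prtn3 they lie at 95 to 90 and 56 to 51 before the RefSeq start, which is inside the GENCODE M1 gene given above. Exons of the gene itself cover part of some 250-base windows: 203 bases for Mpo, 65 for Nkg7, 53 for Prtn3 and 7 for Fcnb. Ctsg holds GAGGAA at 216 to 211, CAACTG at 93 to 88, the reverse complement of the RUNX letters at 79 to 74 and that of the MYB letters at 36 to 31. Over the 250-base windows, GAGGAA occurred in 4 of the 7 genes (Mpo, Elane, Prtn3, Ctsg) and in 23.25% of 32851 promoters of the same length, and the MYB letters in 4 of 7 (Elane, Prtn3, Ctsg, Nkg7) and in 29.33% of promoters. The C/EBP letters occurred in Ms4a3 and Fcnb, 2 of 7, against 36.85% of promoters, and the RUNX letters in Ctsg and Nkg7, 2 of 7, against 14.05%. Such matches describe letters in a window and do not show that a factor binds there.

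Expression is given as FPKM, fragment counts scaled to transcript length and to the mapped fragments of the sample, so that levels of genes of different length can be set side by side. Summed FPKM ran from 694414 to 955433 per sample, 15282 to 17852 genes were above 0, and mitochondrial genes took 12.5% to 36.7%. The number of reads was not given, but the spacing of low values put the deepest library 3.16 times above the shallowest. Replicates 4 and 5 of LT-HSC and of ST-HSC stood apart from the rest of their groups: the 12 mature neutrophil markers summed to 77483 and 31205 FPKM in LT-HSC replicates 4 and 5 and to 27.5, 47.3 and 44.8 in replicates 1 to 3. In ST-HSC they summed to 43690 and 9111 in replicates 4 and 5 against 67.0, 125 and 1265. Comparisons of LT-HSC and ST-HSC are therefore also given without those 4 libraries. The genes of the sorting antigens followed the gates in part. Fcgr3 ran from 1.87 to 9.98 FPKM in CMP (low FcγR) and from 129.6 to 189.5 in GMP (FcγR+). Slamf1 (CD150) averaged 10.9 FPKM in LT-HSC, gated CD150+, and 0.17 in MPP and 0.09 in GMP, gated CD150-. In CMP, also gated CD150-, Slamf1 averaged 3.44 FPKM (2.19 to 3.99). Kit stood at 108 ± 19.5 FPKM (SD, n = 5) in ST-HSC and 57.2 ± 6.89 in GMP, although both were gated c-Kit+.

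Mpo was the most abundant of the 7 genes in every ST-HSC, MPP, CMP and GMP sample. It stood at 14354, 14026, 12450, 10745 and 12230 FPKM in the 5 GMP samples, where it was the 5th or 6th most abundant gene of each sample. CMP samples held 3678, 4292, 1882, 2031 and 1123 FPKM, MPP samples 1095 to 3178 with a median of 2315, and ST-HSC samples 421, 777, 1392, 984 and 1722. LT-HSC were lower, at 24.3, 6.70, 92.2, 210 and 83.9, and MEP lower still on average, at 25.8, 24.4, 2.74 and 30.4. GMP did not overlap any other group, ST-HSC did not overlap LT-HSC, and CMP, MPP and ST-HSC overlapped each neighbour in the order of group means.

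In the leukaemias Mpo was low whatever the cell of origin. STHSC:MA9 held 72.7, 29.3 and 163 FPKM and CMP:MA9 73.1, 29.2, 34.0 and 40.1, while MPP:MA9 ran from 18.2 to 76.4 (median 46.5) and GMP:MA9 from 17.7 to 229 (median 35.5). All 5 GMP samples lay above all 44 others for 6 of the 7 genes, Fcnb being the exception, against 1.27% of 12666 genes. The 19 leukaemias (17.7 to 229) lay below all 21 samples of the 4 normal cells of origin, whose lowest was 421, and overlapped LT-HSC and MEP. Of 12600 genes tested, 3.64% had all 19 leukaemias below all 21 of these samples. Mpo and Nkg7 were the 2 of the 7 that did.

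The serine proteases peaked in GMP as well but were not as low in leukaemia. Elane reached 6449, 4386, 3724, 3078 and 3872 FPKM in GMP, against 351, 447, 112, 177 and 66.2 in CMP, 42.7 to 624 (median 393) in MPP and 99.0, 147, 229, 346 and 678 in ST-HSC. LT-HSC held 20.2, 3.60, 26.3, 109 and 73.1 and MEP 5.09, 5.22, 1.24 and 22.4. Outside GMP the groups overlapped in order of their means, and leukaemias were mixed among them: STHSC:MA9 held 326, 1251 and 1637 FPKM, CMP:MA9 157, 291, 680 and 362, MPP:MA9 84.6 to 1322 (median 543) and GMP:MA9 33.5 to 832 (median 313).

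Prtn3, the neighbour of Elane on the chromosome, ran from 110.6 to 730 FPKM among the leukaemias, the narrowest range of the 7 genes as a ratio of highest to lowest. It stood at 2542, 1872, 1664, 1438 and 1646 FPKM in GMP, 533, 642, 271, 250 and 184 in CMP, 195 to 538 (median 357) in MPP and 68.3, 84.4, 154, 203 and 293 in ST-HSC. LT-HSC (16.8, 34.6, 32.6, 57.3, 37.7) and MEP (6.93, 7.26, 5.62, 10.1) overlapped no other group and did not overlap each other. CMP:MA9 held 341, 412, 414 and 370 FPKM, STHSC:MA9 209, 571 and 662, MPP:MA9 335 to 730 (median 488) and GMP:MA9 111 to 474 (median 212), so every leukaemia held more Prtn3 than every LT-HSC and MEP sample and less than every GMP sample.

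Ctsg stood at 1986, 1897, 1714, 1511 and 1757 FPKM in GMP and at 460, 515, 217, 223 and 150 in CMP. MPP ran from 97.3 to 398 (median 289), and ST-HSC held 67.9, 71.5, 167, 147 and 284. LT-HSC held 3.30, 0.61, 14.4, 36.4 and 13.2, below every ST-HSC sample, and MEP 2.95, 3.96, 0.97 and 3.14. The leukaemias spanned 20.4 to 831, with STHSC:MA9 at 137, 831 and 555, CMP:MA9 at 177, 277, 228 and 248, MPP:MA9 at 20.4 to 313 (median 197) and GMP:MA9 at 69.2 to 378 (median 199), and overlapped MPP, CMP, ST-HSC and, with 1 MPP:MA9 sample at 20.4, LT-HSC.

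Ms4a3, which marks the granulocyte and monocyte branch, was high in GMP and low in the other normal cells. GMP samples held 606, 594, 559, 545 and 513 FPKM, while the other 25 normal samples held 0.27 to 63.4. CMP (29.1, 27.1, 16.6, 19.4, 10.3), ST-HSC (17.1, 21.7, 31.6, 32.3, 51.9) and MPP (12.8 to 63.4, median 42.0) overlapped, LT-HSC held 2.21, 1.06, 2.63, 21.3 and 11.9, and MEP held 0.66, 1.26, 0.27 and 0.44. Leukaemias varied widely, from 0.22 in an MPP:MA9 sample to 205 in an STHSC:MA9 sample. The STHSC:MA9 values were 13.4, 205 and 195, the CMP:MA9 values 2.94, 14.3, 92.4 and 37.2, and GMP:MA9 ran from 4.48 to 88 (median 53.4).

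Nkg7 was present in every normal sample and low in every leukaemia. It stood at 773, 633, 653, 631 and 610 FPKM in GMP, at 139, 168, 210, 216 and 294 in ST-HSC, at 130 to 222 (median 196) in MPP, at 207, 181, 193, 170 and 134 in CMP, at 95.1, 55.2, 75.6, 72.6 and 80.3 in LT-HSC and at 51.6, 56.1, 41.2 and 54.9 in MEP. Leukaemias held 3.10, 15.4 and 5.83 (STHSC:MA9), 0.41 to 23.5 with a median of 5.84 (MPP:MA9), 0.64, 1.43, 1.56 and 7.13 (CMP:MA9) and 0.55 to 10.1 with a median of 2.56 (GMP:MA9). The highest leukaemia (23.5) lay below the lowest of the 30 normal samples (41.2). All 19 leukaemias lay below all 30 normal samples for 1.67% of 12666 genes, and of the 7 genes for Nkg7 alone. Markers of the cytotoxic lymphocytes in which Nkg7 is best known (11 genes) summed to at most 26.9 FPKM in any normal sample and to 1.89 to 9.68 in GMP, where Nkg7 was highest, and the perforin gene Prf1 and Cd3g were at 0 in all GMP:MA9 samples. The highest sum of these markers, 63.5 FPKM, was that of MPP:MA9 replicate 6, which also had the highest Nkg7 of the leukaemias (23.5 FPKM), and the part of those markers in that value was not tested.

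**Figure D1:**
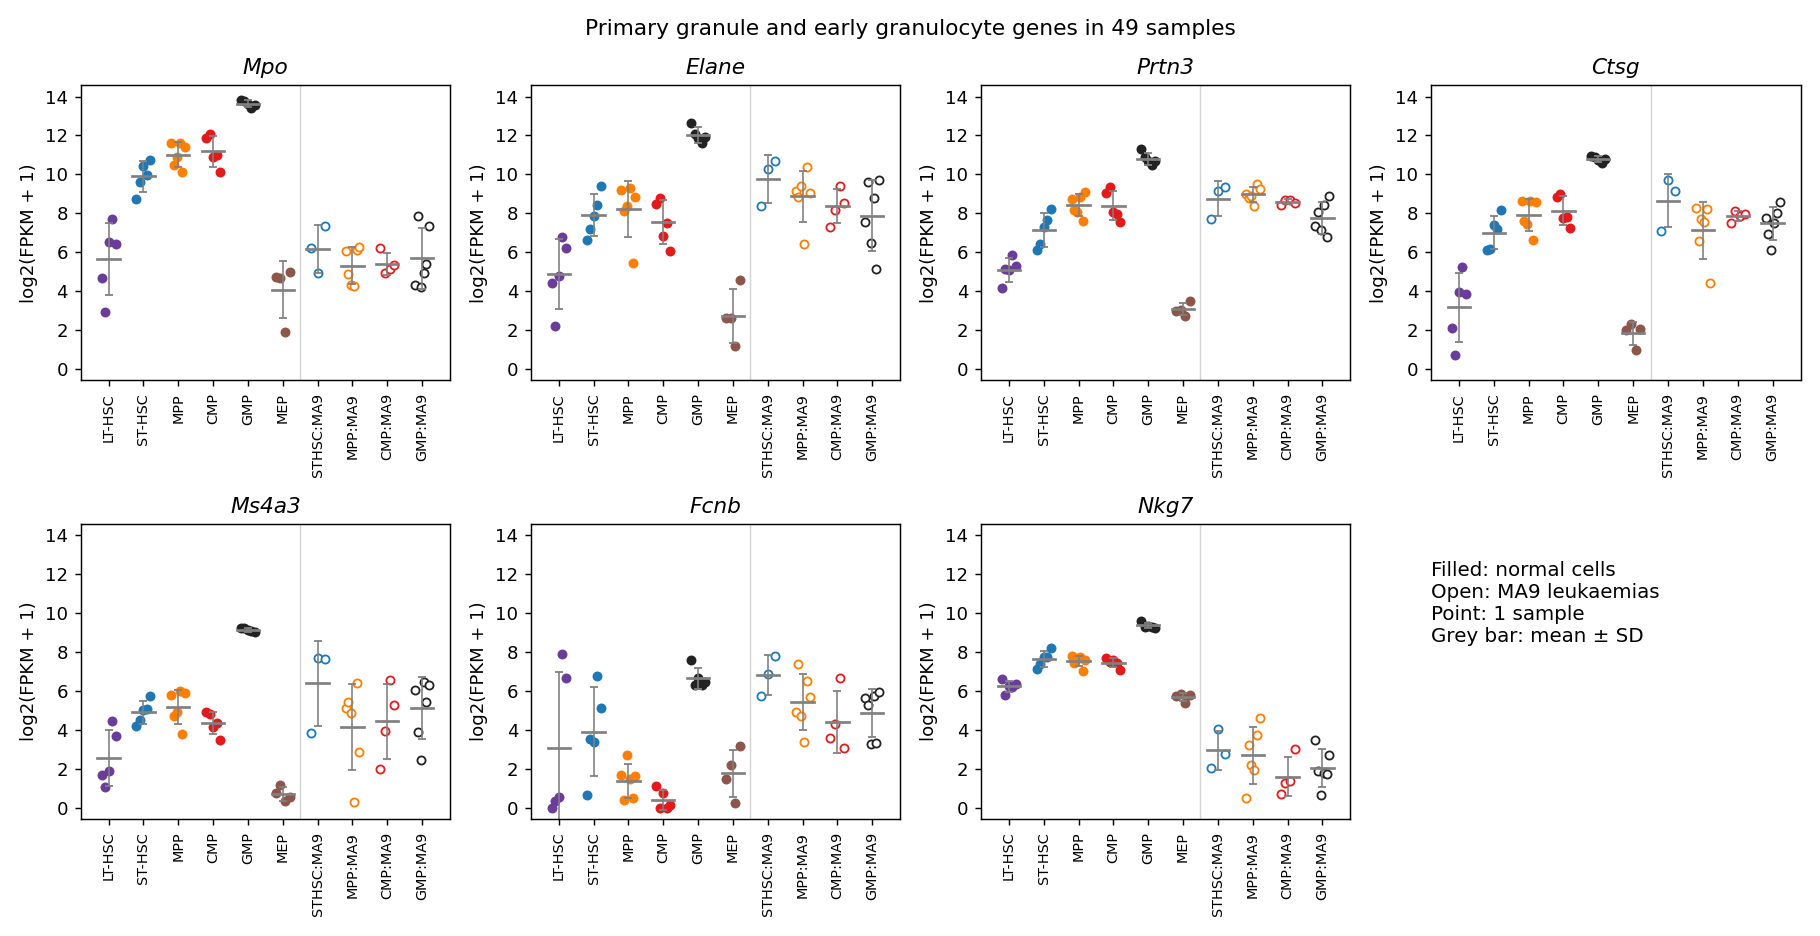
Level of each gene, log2(FPKM + 1), in each of 49 samples (points) by group, with the group mean and SD in grey; filled points are normal cells and open points leukaemias. GMP is the highest group for every gene but Fcnb, the Mpo points of all leukaemias lie below those of ST-HSC, MPP, CMP and GMP, and the Nkg7 points of all leukaemias lie below those of all normal cells.

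Fcnb did not follow the other 6 genes. It was high in GMP, at 191, 77.7, 100, 77.2 and 85.7 FPKM, and near 0 in CMP, where it stood at 1.16, 0.66 and 0.08 in 3 samples and was listed at 0 in 2. MPP held 0.29 to 5.43 (median 1.89) and MEP 1.77, 3.49, 0.17 and 7.83. LT-HSC replicates 1 to 3 were at 0, 0.25 and 0.44 and replicates 4 and 5 at 241 and 100, and ST-HSC replicates 1 to 3 were at 0.55, 10.6 and 9.40 and replicates 4 and 5 at 109 and 34.3. These are the 4 libraries with the high sums of neutrophil markers described above, and the part of those markers in the Fcnb values was not tested.

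In leukaemias Fcnb ran from 7.50 to 225 FPKM. STHSC:MA9 held 52.2, 117 and 225, MPP:MA9 9.31 to 169 (median 39.2), CMP:MA9 10.9, 18.4, 101 and 7.50 and GMP:MA9 8.73 to 61.3 (median 43.8), and the STHSC:MA9 values overlapped those of GMP. The neutrophil markers, which include S100a8 and lactoferrin (Ltf), were also higher in the leukaemias than in MPP and CMP: their sums were 1347 to 65250 FPKM in the 19 leukaemias, 1781 to 11691 in GMP, 20.3 to 909 in MPP and 36.4 to 286 in CMP, and none of the 12 markers was at 0 throughout a group. Against GMP they did not follow Fcnb, with median sums of 10570 FPKM in GMP:MA9, 7423 in CMP:MA9 and 5035 in GMP. Over the 49 samples the gene whose log2 level was most like that of Fcnb was S100a8 (Pearson r = 0.943, Spearman rho = 0.927), followed by Clec5a (0.943) and C3 (0.927).

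**Figure D2:**
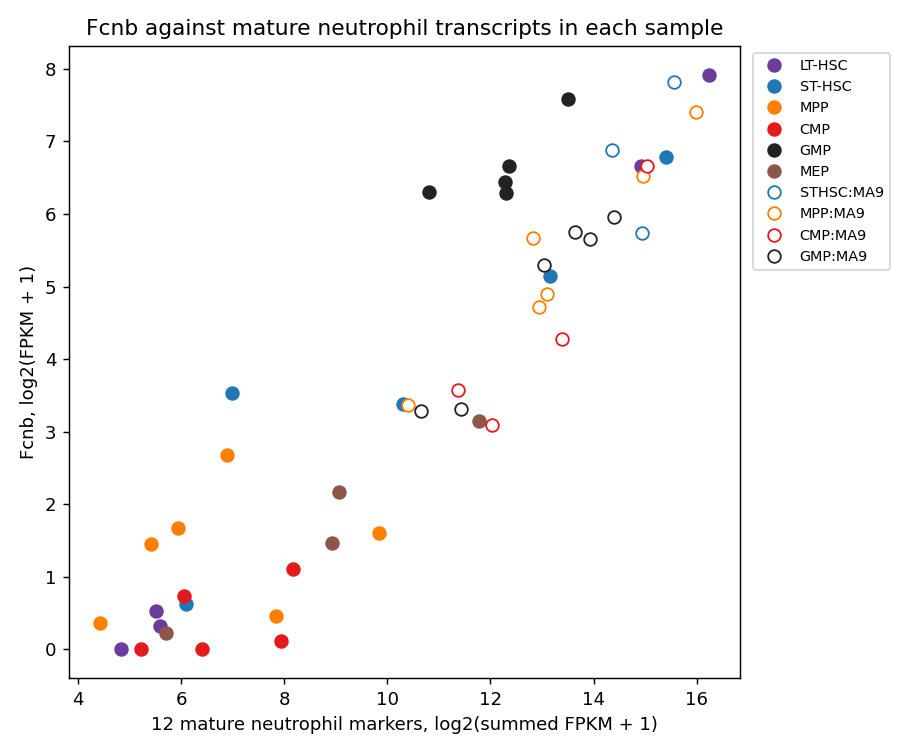
Fcnb, log2(FPKM + 1), against the summed FPKM of 12 mature neutrophil markers, log2(sum + 1), in 49 samples coloured by group, with leukaemias as open points. LT-HSC and ST-HSC are split, with replicates 4 and 5 at the upper right (sums of 9111 to 77483 FPKM), and the GMP samples (77.2 to 191 FPKM of Fcnb) lie above the 10 other samples whose sums fall within the GMP range (7.50 to 49.6 FPKM).

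The steps among normal cells asked where along differentiation these genes changed. They were compared with limma on log2(FPKM + 1), calling a gene at a Benjamini-Hochberg adjusted p below 0.05 and a log2 change above 1 in size. From CMP to GMP, 7 of 7 genes rose, where 3.31% of the 12367 genes tested rose, 7.94% fell and 11.2% were called in either direction. The median log2 change was 2.65 for the 7 and -0.20 for all genes tested. Fcnb rose by 6.26 ± 1.14 (SE, adjusted p = 8.64e-05), Ms4a3 by 4.80 ± 0.47 (adjusted p = 8.05e-09) and Elane by 4.5 ± 0.75 (adjusted p = 2.66e-05). Ctsg rose by 2.65 ± 0.57 (adjusted p = 0.000539), Mpo by 2.45 ± 0.63 (adjusted p = 0.0029), Prtn3 by 2.42 ± 0.36 (adjusted p = 6.58e-06) and Nkg7 by 1.90 ± 0.17 (adjusted p = 1.07e-09). The GMP and CMP ranges did not overlap for any of the 7, against 9.78% of genes tested with every GMP sample above every CMP sample. Mean FPKM was 27.5 times higher in GMP for Ms4a3, 18.6 times for Elane, 5.66 for Ctsg, 4.91 for Mpo, 4.87 for Prtn3 and 3.73 for Nkg7. The 7 genes together took 2.23% to 3.24% of the summed FPKM of GMP, 0.193% to 0.761% of CMP and 0.0058% to 0.0139% of MEP.

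At the earliest step, from LT-HSC to ST-HSC, 6 of 7 genes rose, where 1.5% of all genes tested rose, 0.768% fell and 2.26% were called in either direction. Mpo rose by 4.24 ± 0.63 and Ctsg by 3.85 ± 0.57 on the log2 scale (adjusted p = 8.62e-05 for both), Elane by 3.03 ± 0.75 (adjusted p = 0.00939), Ms4a3 by 2.35 ± 0.47 (adjusted p = 0.00188), Prtn3 by 2.03 ± 0.36 (adjusted p = 0.000626) and Nkg7 by 1.40 ± 0.17 (adjusted p = 8.03e-06). Fcnb changed by 0.81 ± 1.14 (adjusted p = 0.735). Fitted on these 2 groups alone, 2 of 7 were called, Mpo and Nkg7. Without replicates 4 and 5 of both groups 7 of 7 rose, Fcnb by 2.23 (adjusted p = 0.031). In both groups Elane, Prtn3, Ms4a3 and Fcnb were higher in replicates 4 and 5 than in replicates 1 to 3. Nkg7 was so in ST-HSC alone, and Mpo and Ctsg in neither group. Mean Mpo without replicates 4 and 5 was 41.0 FPKM in LT-HSC and 864 in ST-HSC.

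Between ST-HSC and CMP few of the genes were called. From ST-HSC to MPP 1 of 7 rose, where 2.13% of genes tested rose, 1.31% fell and 3.44% were called in either direction: Prtn3, by 1.28 ± 0.35 (adjusted p = 0.0105), with overlapping ranges. That call was lost after a correction for GC content and gene length (log2 change 0.90, adjusted p = 0.0786). Without replicates 4 and 5 of LT-HSC and ST-HSC Prtn3 was again the 1 of 7 called, and without ST-HSC replicate 1 Fcnb was called as well, lower in MPP (log2 change -3.34, adjusted p = 0.0401). From MPP to CMP none of 7 was called, where 1.49% of genes tested rose, 2.83% fell and 4.32% were called in either direction, and changes ran from -0.98 for Fcnb to 0.22 for Ctsg. At an unadjusted p under 0.05 limma also called 0 of the 7. MPP samples entered both steps.

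From CMP to MEP, 6 of 7 genes fell, where 9.49% of genes tested fell, 2.34% rose and 11.8% were called in either direction. Mpo fell by 7.11 ± 0.67 on the log2 scale (adjusted p = 3.47e-09), Ctsg by 6.31 ± 0.60 (adjusted p = 4.84e-09), Prtn3 by 5.34 ± 0.39 (adjusted p = 3.24e-11) and Elane by 4.79 ± 0.80 (adjusted p = 3.34e-05). Ms4a3 fell by 3.65 ± 0.50 (adjusted p = 2.16e-06) and Nkg7 by 1.77 ± 0.18 (adjusted p = 1.19e-08), while Fcnb changed by 1.36 ± 1.21 (adjusted p = 0.424). Between the progenitors of the 2 branches, 7 of 7 were higher in GMP than in MEP, where 11.2% of genes tested were higher, 9.33% lower and 20.5% called in either direction, with log2 differences from 3.67 (Nkg7) to 9.56 (Mpo). Nkg7 was the highest of the 7 within every MEP sample.

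Each leukaemia was then compared with the normal cell it arose from, in a model of 40 samples. In GMP:MA9, 7 of 7 genes were lower than in GMP, where 8.87% of 12600 genes tested were lower, 13.5% higher and 22.4% called in either direction, and the median log2 change was -4.03 for the 7 and 0.0035 for all genes tested. Mpo fell by 7.95 ± 0.53 (adjusted p = 1.38e-14), a mean 152.9 times lower, and Nkg7 by 7.34 ± 0.47 (adjusted p = 5.37e-15), a mean 169 times lower. Elane fell by 4.15 ± 0.73 (adjusted p = 9.44e-06), Ms4a3 by 4.03 ± 0.82 (adjusted p = 7.23e-05), Ctsg by 3.30 ± 0.53 (adjusted p = 2.41e-06) and Prtn3 by 3.04 ± 0.37 (adjusted p = 1.41e-08). Fcnb fell by 1.78 ± 0.75 (adjusted p = 0.04). The Fcnb call did not hold at a pseudocount of 0.1 (adjusted p = 0.0881), nor with every gene of the table tested (adjusted p = 0.076), nor when GMP replicate 1, 3 or 5 or GMP:MA9 replicate 3 or 5 was left out (adjusted p = 0.0531 to 0.106). The ranges of the 7 genes did not overlap between GMP:MA9 and GMP, as for 19.5% of genes tested with every leukaemia sample below every GMP sample. In such bulk samples fewer cells of a type and less RNA per cell cannot be told apart.

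In the leukaemias from the other 3 cells, Mpo and Nkg7 fell and Fcnb rose. In MPP:MA9, 2 of 7 were lower and 1 higher than in MPP, where 13.6% of genes tested were lower, 13.5% higher and 27.1% called in either direction: Mpo fell by 5.71 ± 0.51 (adjusted p = 4.49e-12), Nkg7 fell by 4.85 ± 0.45 (adjusted p = 1.44e-11) and Fcnb rose by 4.05 ± 0.71 (adjusted p = 6.99e-06). In CMP:MA9 the counts against CMP were also 2 lower and 1 higher, where 14.8% of genes tested were lower, 13% higher and 27.8% called in either direction, with Mpo down by 5.78 ± 0.59 (adjusted p = 2.26e-10), Nkg7 down by 5.87 ± 0.52 (adjusted p = 1.02e-11) and Fcnb up by 4.01 ± 0.83 (adjusted p = 8.66e-05). For Elane, Prtn3, Ctsg and Ms4a3 the changes in these pairs ran from -1.03 to 0.82 with adjusted p values from 0.169 to 0.945. Mean Mpo was 49 times lower in MPP:MA9 than in MPP and 59.0 times lower in CMP:MA9 than in CMP, and mean Nkg7 22.2 and 65.8 times lower.

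In STHSC:MA9, 3 of 7 were higher and 2 lower than in ST-HSC, where 12.3% of genes tested were higher, 11.9% lower and 24.2% called in either direction. Mpo fell by 3.73 ± 0.64 (adjusted p = 8.73e-06) and Nkg7 by 4.70 ± 0.57 (adjusted p = 1.47e-08). Fcnb rose by 2.92 ± 0.90 (adjusted p = 0.00723), Prtn3 by 1.61 ± 0.44 (adjusted p = 0.00274) and Ctsg by 1.63 ± 0.64 (adjusted p = 0.0326), each with overlapping ranges. Elane differed by 1.86 ± 0.87 (adjusted p = 0.0763) and Ms4a3 by 1.48 ± 0.98 (adjusted p = 0.218). With ST-HSC replicates 4 and 5 left out Elane was also called (log2 change 2.54, adjusted p = 0.0294). The Ctsg call was lost when ST-HSC replicate 1 or 2 or STHSC:MA9 replicate 2 or 3 was left out (adjusted p = 0.0773 to 0.216), and the Fcnb call without STHSC:MA9 replicate 3 (adjusted p = 0.0565), so that 3 of 7 were called without that sample. Without STHSC:MA9 replicate 1, 7 of 7 were called (adjusted p = 0.0347 for both Elane and Ms4a3).

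**Figure D3:**
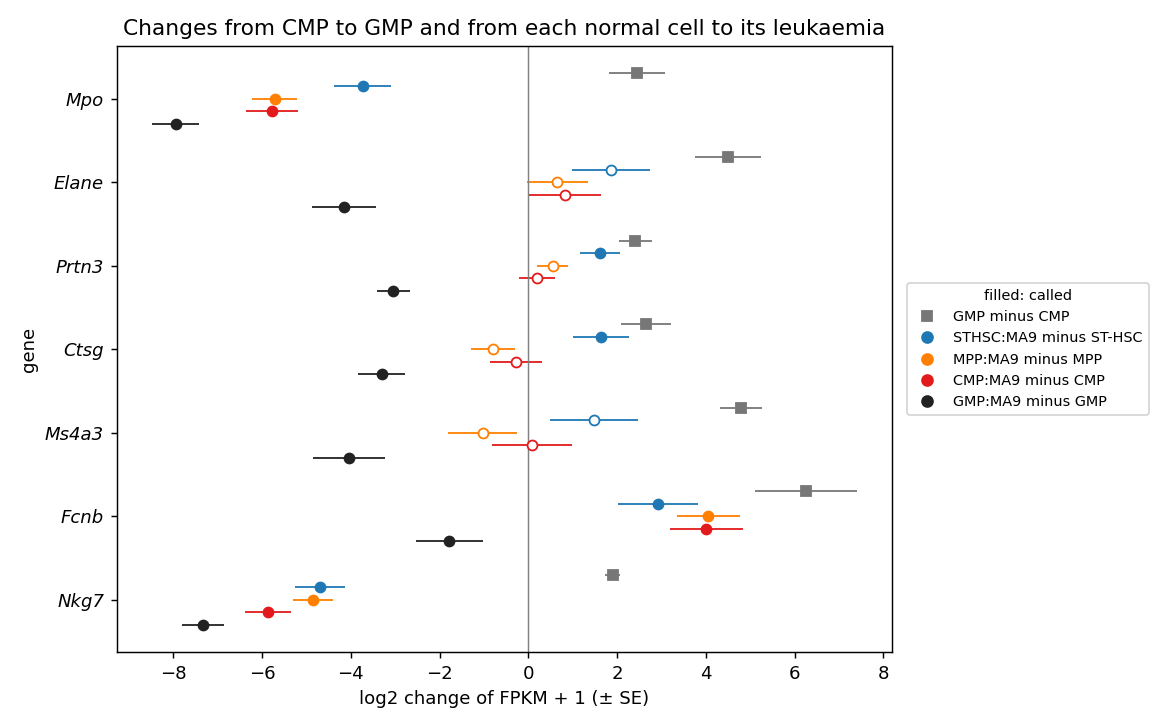
Log2 change of FPKM + 1 with its SE for each gene from CMP to GMP (squares) and from each normal cell to its leukaemia (circles), filled where the change was called. Mpo and Nkg7 are below 0 in all 4 leukaemias, all 7 genes are below 0 in GMP:MA9 against GMP, and Fcnb is above 0 in the other 3.

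The size of the change differed with the cell of origin for all 7 genes by an F test over the 4 changes, which 38.0% of genes tested passed at an adjusted p below 0.05. The changes start from different normal levels, so this test does not separate differences among leukaemias from differences among normal cells. The adjusted p was 1.15e-07 for Prtn3, 6.39e-05 for Fcnb, 0.000105 for Elane, 0.000117 for Ctsg, 0.00126 for Mpo, 0.00378 for Ms4a3 and 0.00761 for Nkg7. Among the leukaemias themselves, 42 differences (7 genes in 6 pairs) gave 6 at an unadjusted p under 0.05 and 1 call. The call was Prtn3, higher in MPP:MA9 than in GMP:MA9 by 1.20 ± 0.33 (adjusted p = 0.0186), 1 of 7 where 1.39% of 12128 genes tested were higher, 0.833% lower and 2.23% called in either direction, and the ranges of the 2 groups overlapped. The call was lost after the GC and length correction (log2 difference 0.72, adjusted p = 0.201). None of 7 was called in the other 5 pairs, where the genes called in either direction came to 2.88% (STHSC:MA9 and MPP:MA9), 0.363% (STHSC:MA9 and CMP:MA9), 0.536% (STHSC:MA9 and GMP:MA9), 0.115% (MPP:MA9 and CMP:MA9) and 0.206% (CMP:MA9 and GMP:MA9). Prtn3 and Ctsg are in the study's own list of genes that differ between these leukaemias, which was chosen on the same samples, so neither is independent evidence. Of the differences not called the largest were those of Fcnb, 2.41 ± 0.94 higher in STHSC:MA9 than in CMP:MA9 (adjusted p = 0.225), and Ms4a3, 2.23 ± 1.26 higher in STHSC:MA9 than in MPP:MA9 (adjusted p = 0.258).

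Normal GMP was chosen as a further reference because primary granule genes are known to be highest there. Lower values elsewhere were thus largely fixed in advance, and normal CMP were also lower than GMP for 7 of 7. The counts below therefore do not show a loss particular to leukaemia. Set against GMP, the other leukaemias were lower for most of the genes. These 3 comparisons share the 5 GMP samples with each other and with that of GMP:MA9. In CMP:MA9 7 of 7 were lower (8.72% of genes tested were lower, 14.2% higher and 23.0% called in either direction). In MPP:MA9 6 of 7 were lower (9.29% lower, 16.3% higher, 25.6% in all) and in STHSC:MA9 6 of 7 (7.26% lower, 11.6% higher, 18.9% in all). The gene not called was Fcnb, with -1.23 ± 0.75 in MPP:MA9 (adjusted p = 0.156) and 0.16 ± 0.90 in STHSC:MA9 (adjusted p = 0.91). In CMP:MA9 it differed by -2.25 ± 0.83 (adjusted p = 0.0209) with overlapping ranges, a call that did not hold at a pseudocount of 0.1 (adjusted p = 0.0529). Prtn3 was 2.06 ± 0.44 (adjusted p = 0.000269), 1.85 ± 0.37 (adjusted p = 4.94e-05) and 2.23 ± 0.41 (adjusted p = 2.09e-05) log2 units below GMP in STHSC:MA9, MPP:MA9 and CMP:MA9. Without STHSC:MA9 replicate 1, the sample with the least Elane, Prtn3, Ctsg and Ms4a3 of its group, 3 of 7 remained called in STHSC:MA9, and Elane (adjusted p = 0.237), Ctsg (0.125) and Ms4a3 (0.291) were lost.

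The mix of granule transcripts was also compared within each sample, which does not depend on scaling between samples. These ratios were chosen after the values had been seen. In leukaemias the highest of the 7 was Elane in 11 of 19 samples, Prtn3 in 6 and Ctsg in 2, and Mpo in 0. The ratio of Mpo to Elane FPKM was 2.23 to 3.49 in GMP and 0.0676 to 1.23 in GMP:MA9, 14.2 times lower on the geometric mean (2-sided exact permutation test over samples, p = 0.00433, adjusted p = 0.013 over 12 tests). It was 4.98 to 25.6 in MPP and 0.0281 to 0.215 in MPP:MA9, 85.0 times lower (exact permutation p = 0.00216, adjusted p = 0.013), and 9.59 to 17.0 in CMP and 0.0499 to 0.466 in CMP:MA9, 99.9 times lower (exact permutation p = 0.0159, adjusted p = 0.0317). In ST-HSC it was 2.54 to 6.09 and in STHSC:MA9 0.0234 to 0.223, 49.4 times lower. There the exact permutation p was 0.0357, the smallest that 56 splits allow, and 0.0536 when adjusted. Without ST-HSC replicates 4 and 5 the ratio was 4.26 to 6.09 in ST-HSC and 64.1 times lower in STHSC:MA9 (exact permutation p = 0.1, the smallest that 20 splits allow). The ratios did not overlap in any of the 4 pairs.

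For Elane and Prtn3, 0 of 4 differences in ratio passed the adjusted threshold. Their ratio was 2.14 to 2.54 in GMP and 0.303 to 3.00 in GMP:MA9 (exact permutation p = 0.0476, adjusted p = 0.0635), 0.219 to 1.37 in MPP and 0.252 to 1.81 in MPP:MA9 (exact permutation p = 0.779, also when adjusted), 0.360 to 0.708 in CMP and 0.460 to 1.64 in CMP:MA9 (exact permutation p = 0.190, adjusted p = 0.229) and 1.45 to 2.31 in ST-HSC and 1.56 to 2.47 in STHSC:MA9 (exact permutation p = 0.357, adjusted p = 0.39). Mpo to Prtn3 ratios were 30.8 to 79.1 times lower in the leukaemias. By the exact permutation test the adjusted p was 0.013 for GMP:MA9, 0.013 for MPP:MA9 and 0.0317 for CMP:MA9. For STHSC:MA9 it was 0.0536, which did not pass. The ratio of Elane to Prtn3 was itself higher in all GMP samples than in all MPP and CMP samples.

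**Figure D4:**
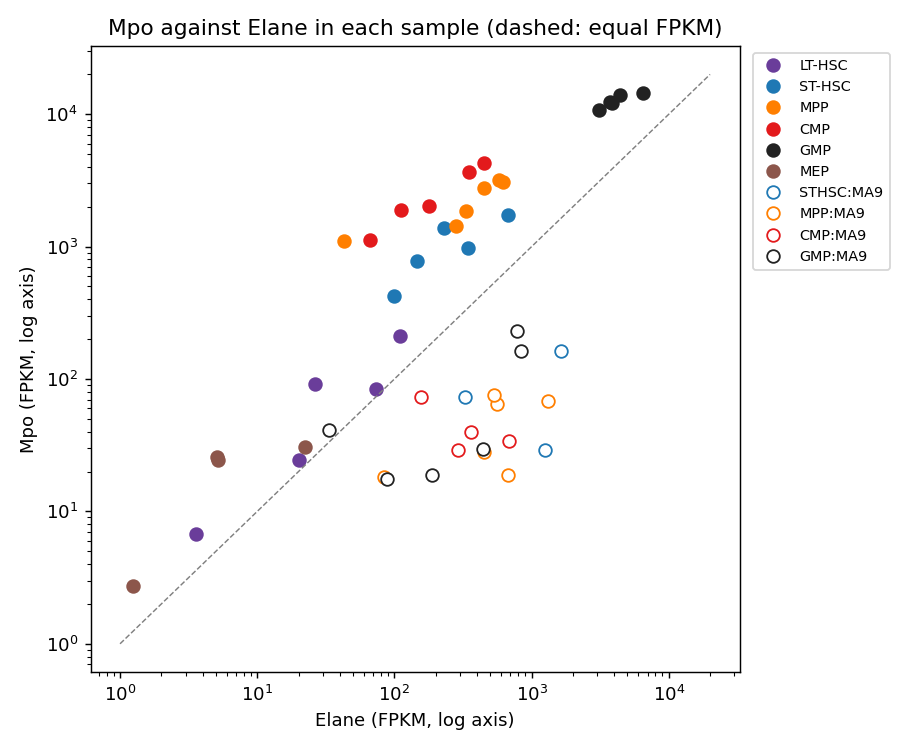
Mpo against Elane, both in FPKM on log axes, in each of 49 samples; open points are leukaemias and the dashed line marks equal FPKM. All 30 normal samples lie above the line with Mpo over Elane ratios of 1.15 to 25.6, and 18 of 19 leukaemias lie below it.

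Across the 30 normal samples the 6 genes other than Fcnb rose and fell together, with Pearson r between pairs of 0.915 to 0.993 on log2 levels, while Fcnb had r of 0.365 to 0.615 with the others. Across the 19 leukaemias r was 0.810 for Elane and Prtn3, 0.766 for Elane and Fcnb, 0.597 for Elane and Ms4a3 and 0.0646 to 0.469 for Mpo with the other genes. Samples of a group share their cell type, so these values describe the data and carry no p. Over all 49 samples and 12156 genes, the genes most like the mean profile of the 7 were Prss57, which encodes a further azurophil serine protease (r = 0.905), Hmgn2 (0.880), Tmem180 (0.872), Arsb (0.869), Slc28a2 (0.862), Dmkn (0.856), Tspan2 (0.848), Serpinb1a (0.846), Tspan5 (0.843) and Fgl2 (0.837). The list depended on the samples: ranking in the 30 normal samples alone shared 2 of the 10 and in the 19 leukaemias alone 0.

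For single genes over the 49 samples, the closest to Mpo were Gm11505 (r = 0.954), which shares sequence with Mpo, Igfbp4 (0.894) and Ms4a2 (0.893). Elane was most like Anxa3 (0.897), Lbp (0.889) and Dtx4 (0.888), and Prtn3 most like Dtx4 (0.928), Pgam1 (0.915) and Cebpa (0.911). Ctsg was most like Gpr97 (0.907), Plac8 (0.894) and Cebpa (0.888), and Ms4a3 most like Serpinb1a (0.895), Srgn (0.881) and Hmgn2 (0.878). Nkg7 was most like Dock9 (0.924), Maoa (0.922) and Gpr128 (0.918), whose r fell to 0.624, 0.717 and 0.422 within the normal samples. In the 19 leukaemias these values were 0.497, -0.0361 and 0.141. Several of the other values were also low within the leukaemias, at 0.0665 for Cebpa with Prtn3, 0.0845 for Cebpa with Ctsg, 0.23 for Pgam1 with Prtn3 and -0.0418 for Ms4a2 with Mpo.

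Other contents of azurophil granules rose from CMP to GMP in part and were called in both directions in GMP:MA9. Of 11 listed, 10 were tested. Counts for this list and the lists below are to be read beside the shares of all genes tested, given above for the same comparisons. From CMP to GMP 4 rose and 0 fell, led by Prss57 (3.08 ± 0.42), the granule membrane protein Cd63 (2.77 ± 0.15) and the granule proteoglycan core serglycin, Srgn (1.49 ± 0.11), and the median change was 0.88 against -0.20 for all genes tested. In GMP:MA9 against GMP 2 were higher and 3 lower: lysozyme (Lyz2) rose by 2.71 ± 0.45 and the lysosomal enzyme Man2b1 by 1.61 ± 0.14, whereas Prss57 fell by 3.15 ± 0.47, Cd63 fell by 1.66 ± 0.43 and Srgn fell by 1.32 ± 0.25. The summed FPKM of the list was 2598 to 3082 in GMP and 4072 to 13923 in the 19 leukaemias. Lyz2 alone ran from 604 to 947 FPKM in GMP and from 3231 to 5606 in GMP:MA9; it is also made by monocytes.

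The list of genes for folding, activating and sorting granule proteins was called in 1 direction in each of these comparisons. Of 11 tested, 6 rose and 0 fell from CMP to GMP, with the largest changes for Cst7 (cystatin F, an inhibitor of the protease that activates granule serine proteases; 2.22 ± 0.28), the chaperone Hsp90b1 (1.41 ± 0.12) and Rab27a, which acts in granule exocytosis (1.37 ± 0.23). In GMP:MA9 6 fell and 0 rose against GMP, with Cst7 down by 2.99 ± 0.49, calreticulin (Calr), a chaperone of the Mpo precursor, down by 1.83 ± 0.18 and G6pc3, a glucose-6-phosphatase whose loss causes neutropenia, down by 1.72 ± 0.16. The median of the list was 1.04 from CMP to GMP and -1.02 in GMP:MA9, against -0.20 and 0.0035 for all genes tested. Ctsc, the protease that activates Elane, Prtn3 and Ctsg, rose by 1.16 ± 0.29 from CMP to GMP and differed by 0.79 ± 0.24 in GMP:MA9, short of the fold threshold, and was called higher in the other 3 leukaemias against their normal cells. Of the protease inhibitors, 4 of 6 listed were tested among normal cells and Slpi (2.58 ± 0.81) and Serpinb1a (1.82 ± 0.47) rose from CMP to GMP. In GMP:MA9 Slpi, an elastase inhibitor, rose by 1.74 ± 0.47, Serpinb6a rose by 1.09 ± 0.26 and Serpinb1a fell by 1.48 ± 0.47, out of 3 tested.

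Among transcription factors known to act on granule genes, 2 of 12 were called in GMP:MA9 against GMP, where 22.4% of all genes tested were. Of 11 tested from CMP to GMP, 4 rose, against 3.31% of all genes tested: Cebpe (3.63 ± 0.76), which drives the later neutrophil stages, Gfi1 (2.46 ± 0.32), a repressor needed for neutrophil formation, Cebpd (1.29 ± 0.49) and Ets1 (1.23 ± 0.40). Gata2, a factor of stem cells and mast cells, fell by 2.74 ± 0.23. The rest were not called: Cebpa (0.82), Spi1 (encoding PU.1; 0.30), Runx1 (-0.53), Cbfb (0.16), Myb (0.01) and Irf8 (-0.28). In GMP:MA9 against GMP, Cebpb rose by 1.41 ± 0.20 and Gfi1 fell by 1.34 ± 0.55, and the median of the 12 was -0.27. The log2 differences not called were Spi1 (0.89), Cebpd (0.58), Irf8 (0.48), Cbfb (-0.04), Runx1 (-0.18), Gata2 (-0.36), Ets1 (-0.39), Cebpa (-0.71), Cebpe (-0.71) and Myb (-0.80). Cebpa stood at 18.1 to 20.98 FPKM in GMP and 7.33 to 13.96 in GMP:MA9, and Cebpe at 17.1 to 32.5 and 3.78 to 30.6. Against their own normal cells, 7 of 12 rose in STHSC:MA9, 5 in MPP:MA9 and 4 in CMP:MA9, against 12.3%, 13.5% and 13% of all genes tested, with Cebpb, Cebpd, Cebpe and Spi1 among those called higher in each of the 3, while Gata2 was called lower in each.

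**Figure D5:**
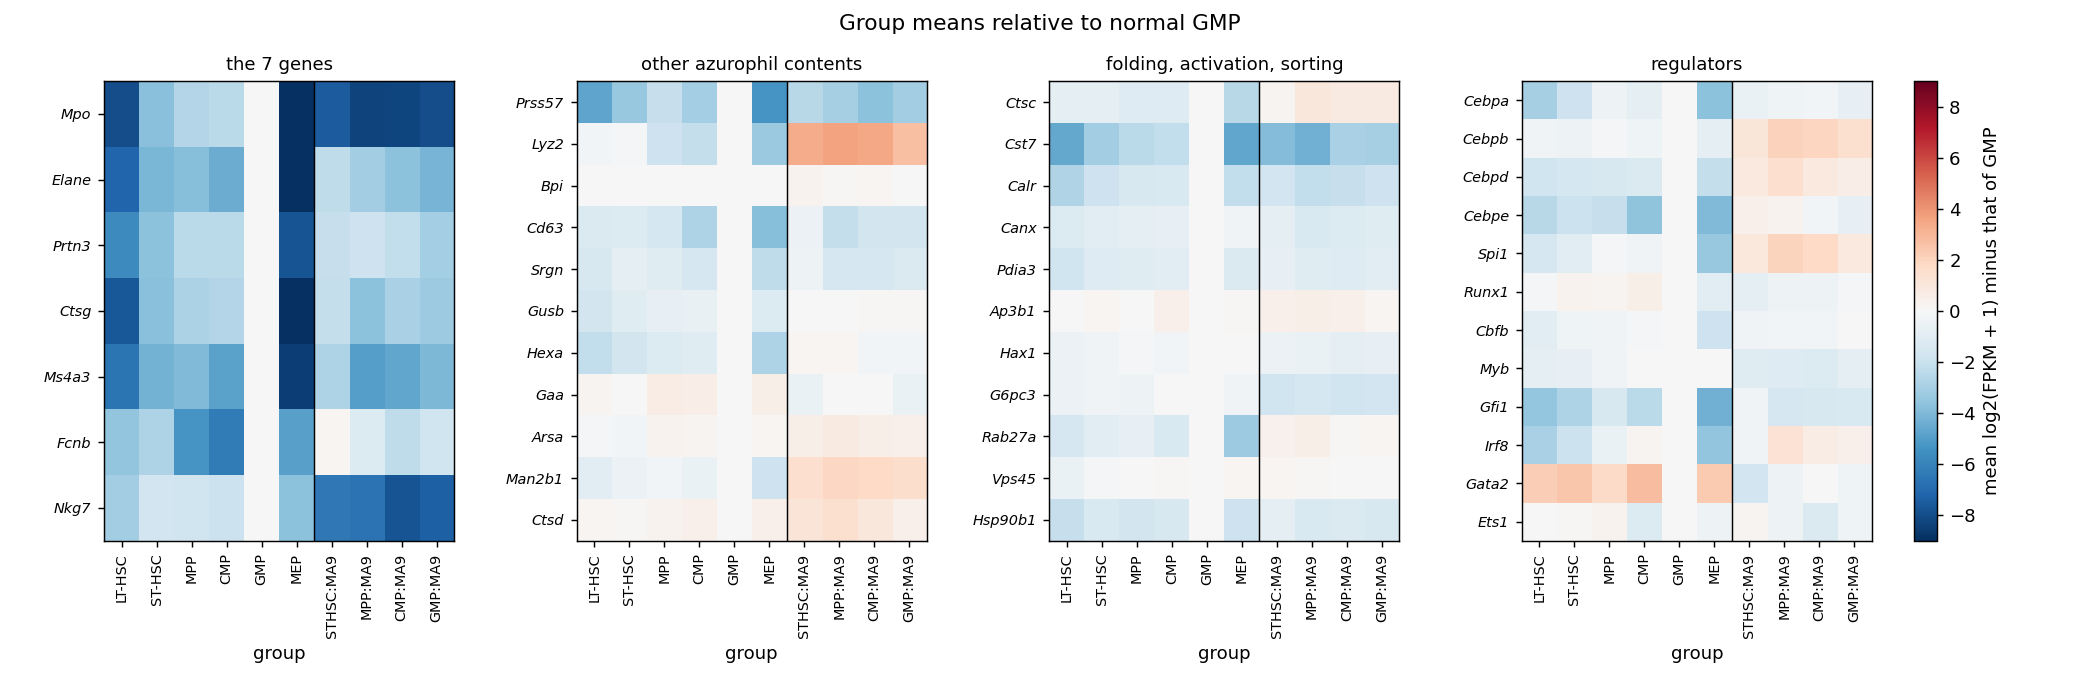
Group means of log2(FPKM + 1) minus that of GMP for the 7 genes and 3 lists of related genes (blue lower, red higher than GMP), with leukaemias to the right of the black line. The 7 genes are blue in LT-HSC, ST-HSC, MPP, CMP and MEP, Mpo and Nkg7 are dark blue in the 4 leukaemias, and Lyz2, Man2b1 and Cebpb are red there.

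The genes next to these loci did not all share their pattern. Cfd, 2636 bases beyond Elane, and Lpo, a peroxidase gene 2014 bases from Mpo, stayed at or below 1.31 FPKM in every sample. At that low level both were highest in GMP, where Lpo averaged 0.824 and Cfd 0.744 FPKM, against 0.192 and 0.06 in CMP. Their highest means in a leukaemia group were 0.01 and 0.253, both in STHSC:MA9. Lim2, 1079 bases from Nkg7, stayed at or below 4.18 FPKM and averaged 0.06 in GMP and 1.06 in CMP. Mcpt8, 14664 bases from Ctsg and a basophil protease gene, rose by 2.55 ± 0.47 from CMP to GMP and was 1.99 ± 0.52 lower in GMP:MA9 than in GMP. Ms4a2, 5777 bases from Ms4a3 and encoding a chain of the IgE receptor, rose by 1.07 ± 0.31 and was 3.06 ± 0.31 lower. Epx, the eosinophil peroxidase 59586 bases from Mpo, rose by 4.27 ± 0.86 and was 4.04 ± 0.46 lower. Over the list of neighbours and paralogs 4 of 7 tested rose and 0 fell from CMP to GMP, and 5 of 8 fell and 2 rose (Fcna and Ms4a6c) in GMP:MA9 against GMP.

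Markers of other cell types moved with these comparisons, and their part in the results was not tested. The shares of all genes tested that rose or fell are given above for both comparisons. In GMP:MA9 against GMP, 4 of 12 neutrophil markers rose (Chi3l3, Mmp9, Cd177 and Mmp8) and 6 of 10 monocyte and macrophage markers rose while Ly6c2 fell. The monocyte sums were 1542 to 2504 FPKM in GMP and 748 to 2609 in the leukaemias, against 157.75 to 535 in CMP. Eosinophil markers rose with the 7 genes from CMP to GMP (4 of 5: Prg2, Epx, Prg3 and Ear2; sums of 7.92 to 12.7 and 324 to 1385 FPKM) and 3 of 5 fell in GMP:MA9 (Prg2, Epx and Prg3). Of 6 mast cell and basophil markers, 4 rose and Gata2 fell from CMP to GMP, and 4 fell in GMP:MA9. Erythroid and megakaryocyte markers fell from CMP to GMP in 10 of 12 and in GMP:MA9 against GMP in 5 of 11. B cell markers were called in 0 of 5 in the former and 0 of 2 in the latter comparison, and summed to 18.0 to 30.03 FPKM in GMP and 12.4 to 37.1 in GMP:MA9, where Ms4a1 and Pax5 were at 0 throughout. Among the sort markers the FcγR genes Fcgr3 and Fcgr2b rose from CMP to GMP and Slamf1 (CD150) fell, and Kit and Cd34 fell in GMP:MA9 against GMP. Cytotoxic lymphocyte markers were called in 0 of 4 from CMP to GMP, and in GMP:MA9 Klrd1 rose and Gzmb fell out of 2 tested.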

How the data were processed

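RNA was amplified to cDNA (NuGEN Ovation V2) and sequenced on an Illumina HiSeq. The authors estimated expression with RSEM against mm9, per the labels, and deposited FPKM values with 2 decimals for 38253 genes. The aligner and annotation are not given in the sources used here. Of 68 columns, 49 matched the labelled samples and 19 were not used. The study tested edgeR on RSEM counts, which are not used here, so log2(FPKM + 1) was tested with limma 3.58.1 (R 4.3.3, trended variance) leaving out genes whose mean was under 1 FPKM. Fold changes on this scale understate changes of low genes. Models were fitted to 3 sets of samples: normal cells (30 samples, 12367 genes), leukaemias with their 4 cells of origin (40 samples, 12600 genes) and leukaemias alone (19 samples, 12128 genes). P-values were adjusted by Benjamini-Hochberg over all genes of a model, and genes with an adjusted p below 0.05 and a log2 change above 1 in size were called. They measure the spread between samples of individual mice, whose assignment to the study's 2 replicate experiments is not stated.

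Read numbers are unknown, so no counting intervals are given. Relative depth was estimated from 9069 rarely detected genes and fitted 98.98% of library pairs within 0.1 log2. No 2 samples were identical. On simulated data for GMP:MA9 against GMP (12274 genes), 199 of 200 simulated 8-fold changes were found and 4 unchanged genes were called beside them. An unchanged table gave 0 calls. In the real data the log2 SD of the 7 genes ran from 0.097 (Ms4a3) to 0.542 (Fcnb) in GMP. In GMP:MA9 it ran from 0.815 (Prtn3) to 1.84 (Elane). Whether calls hold under such unequal spread was not tested. The 7 genes and 13 related lists (115 of 116 genes found in the table; some items are not reported here) were chosen with earlier results of these data known, so no p was adjusted over a list alone. Named besides the 7 genes were the genes with the highest Pearson r over 49 samples (3 per gene, 10 for the mean of the 7), up to 3 called genes per list and direction from CMP to GMP and in GMP:MA9 against GMP, all regulators, and markers at 0. A few called genes beyond this rule (Ctsc and names within short counts) and the neighbours were named after their values were seen. Python 3.11.15 (pandas 2.3.3, scipy 1.17.1) gave tables, exact permutation tests and motif searches. Alternatives were 0.1 as pseudocount, testing every gene, scaling by median ratios, no fold threshold, a correction for GC content and length, a replicate block, only the groups compared, each replicate left out, and the LT-HSC and ST-HSC replicates 4 and 5 left out. Leaving ST-HSC replicates 4 and 5 out of the model with the leukaemias or out of the ratios, and the ratios within samples themselves, were added after seeing the data. By a rule of correlation above 0.1 in every pair, replicate numbers paired LT-HSC with ST-HSC (5 pairs, correlation of deviations 0.142 to 0.683) and no other groups. Of those 5 pairs 3 matched best by number, against 4 of 5 for GMP and CMP (0.048 to 0.29), so pairing is not settled for either. The part of the neutrophil markers of replicates 4 and 5 in these correlations was not tested.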

Additional observations from a re-analysis of the deposited data

Results flagged for a closer look

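In 4 of 63 groups tested a single sample lay far from the rest of its group on the log2 scale, by Dixon's criterion, which chance alone meets in about 1 of 20 groups. MEP replicate 3 had 2.74 FPKM of Mpo, below the other 3 MEP samples. MPP replicate 5 had 42.72 FPKM of Elane, below the other 5 MPP samples. GMP replicate 1 was the highest GMP sample for Fcnb, at 191.03 FPKM, and for Nkg7, at 772.85 FPKM, and it also had the highest sum of mature neutrophil markers of the GMP samples (11691 FPKM). The part of those markers in its Fcnb value was not tested.

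For each of the 7 genes, the size of the difference between leukaemia and normal cell varied with the cell of origin, by limma's F test across all genes. Because the normal levels differ, this test does not separate differences among leukaemias from differences among normal cells. The adjusted p was 0.00126 for Mpo, 0.000105 for Elane, 1.15e-07 for Prtn3, 0.000117 for Ctsg, 0.00378 for Ms4a3, 6.39e-05 for Fcnb and 0.00761 for Nkg7. The changes of Mpo ran from -7.95 (GMP:MA9) to -3.73 (STHSC:MA9) and those of Fcnb from -1.78 (GMP:MA9) to 4.05 (MPP:MA9), and 38.0% of genes tested passed the same test.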

How the results depend on the processing

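Of 140 results for the 7 genes, none changed direction under any alternative run, and none changed its call under median-ratio scaling, which moved the median of all genes by up to 0.19 log2 (GMP against CMP). The number of the 7 called changed in these comparisons. With only the groups compared it was 2 instead of 6 from LT-HSC to ST-HSC, 2 instead of 1 from ST-HSC to MPP and 4 instead of 5 for STHSC:MA9 against ST-HSC (Ctsg and Fcnb lost, Elane gained). With a pseudocount of 0.1 Fcnb was lost in GMP:MA9 and in CMP:MA9 against GMP, leaving 6 instead of 7 in each. With every gene tested Fcnb was lost in GMP:MA9 against GMP (6 instead of 7), Elane in STHSC:MA9 against GMP (5 instead of 6) and Ctsg in STHSC:MA9 against ST-HSC (4 instead of 5). With the GC and length correction, alone or with the replicate block, it was 0 instead of 1 from ST-HSC to MPP and 0 instead of 1 between MPP:MA9 and GMP:MA9. Together with the replicate block it also lost Ctsg in STHSC:MA9 against ST-HSC (4 instead of 5) and Fcnb in GMP:MA9 against GMP (6 instead of 7). With each replicate left out in turn it ranged from 1 to 2 from ST-HSC to MPP (2 without ST-HSC replicate 1), from 3 to 7 for STHSC:MA9 against ST-HSC, from 3 to 6 for STHSC:MA9 against GMP, and from 6 to 7 for GMP:MA9 and for CMP:MA9 against GMP. Without LT-HSC and ST-HSC replicates 4 and 5 it was 7 instead of 6 from LT-HSC to ST-HSC, and without ST-HSC replicates 4 and 5 it was 6 instead of 5 for STHSC:MA9 against ST-HSC. The replicate block alone changed 0 of 140 results, including those of LT-HSC and ST-HSC, where replicate numbers met the rule for pairing. Elsewhere they did not meet it. Over all genes the block moved the calls from 44 to 18 between STHSC:MA9 and CMP:MA9 and from 65 to 35 between STHSC:MA9 and GMP:MA9. It moved them from 14 to 3 between MPP:MA9 and CMP:MA9 and from 25 to 7 between CMP:MA9 and GMP:MA9. Over all genes, calls from LT-HSC to ST-HSC numbered 280, against 40 with only those groups and 552 without replicates 4 and 5. The GC and length correction took the calls from 349 to 112 between STHSC:MA9 and MPP:MA9 and from 270 to 119 between MPP:MA9 and GMP:MA9. With no fold threshold calls rose in all comparisons but that of MPP:MA9 with CMP:MA9 by over 1.5 times, for example from 1391 to 4541 from CMP to GMP and from 2820 to 7359 in GMP:MA9 against GMP. The smaller sample sets test fewer samples by construction, and the cause of the other changes was not tested.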
